A study of Mus musculus with 3 samples.

Results

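The Fc gamma receptors and complement C1q were followed in mouse BM as 8 genes: the activating receptors Fcgr1, Fcgr3 and Fcgr4, the inhibitory receptor Fcgr2b, the common gamma chain Fcer1g and the C1q subunits C1qa, C1qb and C1qc. The genes were picked by symbol, and each of the 8 had 1 entry among the 17250 gene names measured. C57BL/6 mice of 6 to 8 weeks received recombinant leukocyte cell-derived chemotaxin 2 (LECT2), a secreted protein, and gene expression of their BM cells was followed. LECT2 was given under the skin every day at 300 μg/kg for 0, 3 or 5 days, and RNA of cells flushed from the long bones and pelvis was sequenced as 1 library per time point. All 3 groups were the same strain with no engineered allele, and the 0-day group, labelled as LECT2 for 0 days, was the baseline. Whether it received a vehicle is not given in the sources used here. How many mice went into a library is not given in the sources used here.

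Fc gamma receptors bind the constant part of IgG and let myeloid cells take up, kill or respond to antibody-coated targets. Activating receptors have no signalling tail of their own and depend on the common gamma chain, which carries an immunoreceptor tyrosine-based activation motif (ITAM), whereas Fcgr2b carries an inhibitory motif (ITIM) that recruits the lipid phosphatase SHIP. C1q is the recognition unit of the classical complement pathway. It is built from equal numbers of A, B and C chains, binds IgG or IgM in immune complexes, and is made mostly by macrophages and dendritic cells.

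The genes lie at 3 places in the genome (GRCm38, GENCODE annotation, a later build than the mm8 named for the deposited values). Fcgr2b (chr1:170958617-170976547, minus strand), Fcgr4 (chr1:171018920-171029761, plus strand), Fcgr3 (chr1:171051174-171064935, minus strand) and Fcer1g (chr1:171229572-171234365, minus strand) stand within 276 kb of each other. C1qb (chr4:136880129-136886187), C1qc (chr4:136889804-136893065) and C1qa (chr4:136895917-136898803) follow each other on the minus strand within 18.7 kb, and Fcgr1 (chr3:96282909-96293969, minus strand) stands alone. The promoters of 1 activating receptor that was higher under LECT2, 1 that was lower and 1 C1q gene whose level moved little are shown, because these genes part ways in the results. Each is the 250 bases before the RefSeq start site (GRCm38.p6), written 5′ to 3′ on the strand of the gene: Fcgr1 at chr3:96293970-96294219, Fcgr4 at chr1:171018676-171018925 and C1qb at chr4:136886201-136886450. Capitals mark, on either strand, the purine-rich core GAGGAA of PU.1-type sites, the interferon-gamma-type site TTCNNNGAA and the interferon-type site in which GAAA recurs after a gap of 2 bases.
Fcgr1: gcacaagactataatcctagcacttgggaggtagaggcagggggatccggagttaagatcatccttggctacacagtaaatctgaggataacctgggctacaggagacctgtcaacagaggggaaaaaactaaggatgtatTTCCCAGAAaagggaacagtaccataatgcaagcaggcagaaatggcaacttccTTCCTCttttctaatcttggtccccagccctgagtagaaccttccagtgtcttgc
Fcgr4: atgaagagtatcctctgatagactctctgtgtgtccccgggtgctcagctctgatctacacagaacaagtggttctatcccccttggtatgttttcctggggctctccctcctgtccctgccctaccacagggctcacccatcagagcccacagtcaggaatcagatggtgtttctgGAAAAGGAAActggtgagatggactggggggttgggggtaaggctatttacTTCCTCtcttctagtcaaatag
C1qb: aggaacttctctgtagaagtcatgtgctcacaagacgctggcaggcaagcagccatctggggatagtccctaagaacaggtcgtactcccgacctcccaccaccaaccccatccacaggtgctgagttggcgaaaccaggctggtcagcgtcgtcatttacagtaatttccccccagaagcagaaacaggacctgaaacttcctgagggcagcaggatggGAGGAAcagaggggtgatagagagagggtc

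PU.1 is the myeloid transcription factor whose core was searched as GAGGAA on both strands. It was found in 5 of the 7 promoters matched (Fcgr1, Fcgr3, Fcgr4, C1qb and C1qc), and 23.3% of all 32851 promoters of this length held it. TTCNNNGAA was found in Fcgr1 alone of the 7, at 109 to 101 bases before the start, and 7.02% of all promoters held it. The GAAA repeat was found in Fcgr4 alone of the 7, at 73 to 64 bases before the start, and 2.98% of all promoters held it. TTGCNNAA, a C/EBP-type site, was found in Fcgr3 (9.56% of all promoters), and the Maf-type core TGCTGA in Fcgr3 and C1qb (16.1% of all promoters). The marked sites did not overlap in the promoters printed. A match describes these letters and is neither a bound site nor a cause.

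Part of the Fcgr2b and Fcgr3 messages is identical, so their reads can be mixed up. A single transcript per gene was searched, the annotated one nearest to the deposited length. Of all stretches of 50 bases in that of Fcgr2b, 10.9% also occurred in Fcgr3, which was 12.8% of the stretches of Fcgr3. A further 7.0% of Fcgr2b stretches occurred in Gm38204, a gene on the opposite strand over Fcgr2b exons, and without a stated strand setting the reads of both cannot be told apart. The transcripts searched for the other 6 genes shared 0% with any other gene. The longest run shared by Fcgr2b and Fcgr3 is shown because values of both genes rest in part on such reads. It is 129 bases of coding sequence in both genes, and in Fcgr2b it spans an exon junction between chr1:170967980-170968081 and chr1:170966674-170966700 (minus strand, GRCm38). It is written in lower case with no capitals, since no base differs.
Shared run: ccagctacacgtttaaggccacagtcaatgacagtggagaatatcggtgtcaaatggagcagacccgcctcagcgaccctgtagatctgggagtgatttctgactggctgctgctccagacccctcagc

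The libraries held between 15146983 and 15523952 reads on genes. RPKM, read counts scaled to transcript length and to all reads on genes, was used to compare levels between genes. A change is the log2 ratio of RPKM with 0.1 added to both values, followed by an exact 95% interval of the ratio of read counts. There was 1 library per time point, so no test between time points was possible, and intervals cover counting error only. A change of at least 2-fold with at least 1 RPKM in either library was counted as passing. Over 11144 genes with a mean of 1 RPKM or more, the median log2 ratio was 0.10 (3 against 0 days), 0.31 (5 against 0 days) and 0.25 (5 against 3 days), and changes are read against these shifts. The 5-day and 3-day comparisons share the 0-day library. Late neutrophil, erythroid and B cell genes, in lists of unequal size, summed to 150033, 4449 and 2212 RPKM at 0 days. These sums describe the sample and cannot test the marrow label. The late neutrophil gene Ly6g and the B cell gene Ighm were not analysed here.

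At 0 days the 8 genes covered a wide span of levels per length. Fcer1g led at 1706 RPKM, 13 times the next gene, Fcgr3. Then came Fcgr3 (131 RPKM), C1qa (62.4 RPKM), Fcgr2b (56.8 RPKM), C1qb (54.1 RPKM), C1qc (51.0 RPKM) and Fcgr4 (44.0 RPKM), with Fcgr1 last at 4.35 RPKM. Fcgr2b and C1qb did not differ beyond counting error (ratio 1.05, interval 0.964 to 1.14), nor did C1qb and C1qc (ratio 1.06, interval 0.965 to 1.17), whereas all other neighbours did. At 3 and at 5 days Fcgr2b stood just above C1qa, a gap within counting error at both times, and the order of the other genes was as at 0 days. At 5 days the neighbours among Fcgr2b, C1qa, C1qb and C1qc did not differ beyond counting error, whereas C1qc stood 2.92 times above Fcgr4. Fcgr4 and Fcgr1 remained the lowest pair, but the distance between them shrank from 10.1 times at 0 days to 6.29 times at 3 days and 1.80 times at 5 days (interval 1.55 to 2.09).

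**Figure D1:**
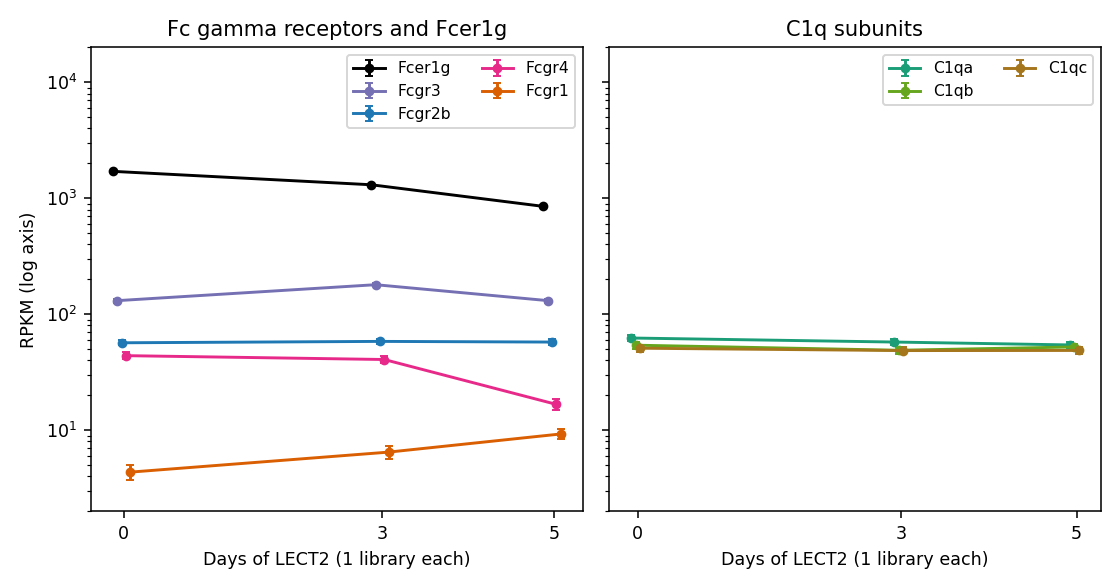
RPKM on a log axis against days of LECT2, with Fc receptor genes on the left and C1q subunits on the right. Each point is 1 library, bars are exact 95% counting intervals and points are shifted sideways for sight. Fcer1g goes from 1706 to 851 RPKM and Fcgr4 from 44.0 to 16.7 RPKM, Fcgr1 climbs from 4.35 to 9.29 RPKM, and the C1q lines lie between 48.6 and 62.4 RPKM.

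At 3 days 0 of the 8 genes passed the 2-fold rule, while 4.08% of 11325 genes were at least 2-fold higher and 2.41% lower. At 5 days 3 of the 8 passed it against 0 days. Fcgr1 rose, as did 15.5% of 11497 genes, while Fcgr4 and Fcer1g fell, as did 5.91% of genes. Between 3 and 5 days 1 of the 8 passed, Fcgr4, which fell as did 3.45% of 11375 genes. The split of all genes depends on scaling: with trimmed-mean (TMM) scaling 7.24% of genes were at least 2-fold higher and 9.92% lower at 5 against 0 days, and with the trend of change on transcript length removed 5.05% were higher and 7.61% lower. Of the 8 genes, Fcgr4 and Fcer1g passed with TMM scaling and Fcgr4 alone with the length trend removed. The median log2 ratio of the 8 genes was -0.09 at 3 days and -0.06 at 5 days against 0 days, below the medians of all genes, but with the length trend removed it was 0.22 and 0.02, above the all-gene medians.

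Fcgr4 encodes a receptor for IgG2a and IgG2b found on neutrophils and on patrolling monocytes. The libraries of 0, 3 and 5 days held 853, 771 and 324 Fcgr4 reads, or 44.0, 40.7 and 16.7 RPKM. The 0-day and 3-day libraries were close, and the 5-day library stood apart below both. Against 0 days the log2 ratio of Fcgr4 was -0.11 (interval -0.25 to 0.03) after 3 days. After 5 days it was -1.39 (interval -1.58 to -1.21), a level 2.62-fold lower. Between 3 and 5 days it was -1.28 (interval -1.48 to -1.10). At 5 days 3.31% of genes had a lower log2 ratio than Fcgr4. The fall passed 2-fold under every scaling run, with -1.70 after TMM scaling and -1.30 after the trend of change with transcript length was removed.

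Fcgr1 encodes CD64, the high-affinity IgG receptor of monocytes and macrophages, which interferon induces. Its reads numbered 175, 254 and 373 in the 0, 3 and 5-day libraries, or 4.35, 6.48 and 9.29 RPKM. The 3 libraries were in order with no overlap of their counting intervals, and the 5-day library was the highest. Against 0 days the log2 ratio of Fcgr1 was 0.56 (interval 0.29 to 0.86) after 3 days. After 5 days it was 1.08 (interval 0.83 to 1.36), a level 2.11-fold higher. That 5-day ratio did not pass 2-fold with TMM scaling (0.77), median-of-ratios scaling (0.78), the length trend removed (0.73), a pseudocount of 1 RPKM (0.94) or the 100 most abundant genes left out (0.88), though it was above 0 in each. Genes within 10% of its length had a median log2 ratio of 0.34 at 5 days.

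Fcgr3 encodes CD16, an activating receptor of neutrophils, monocytes, macrophages and NK cells. Its reads numbered 2752, 3685 and 2752, or 131, 179.8 and 131 RPKM. The 3-day library was above the others, which had the same read number. Against 0 days the log2 ratio of Fcgr3 was 0.46 (interval 0.39 to 0.53) after 3 days and 0.00 (interval -0.08 to 0.08) after 5 days. Between 3 and 5 days it was -0.46 (interval -0.53 to -0.38). None of these passed 2-fold. The 5-day value was -0.31 with TMM scaling and 0.05 with the length trend removed, so its sign depends on the scaling.

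Fcgr2b, the inhibitory receptor and the main Fc gamma receptor of B cells, was the most even of the receptors. It had 1371, 1375 and 1390 reads, or 56.8, 58.3 and 57.6 RPKM, and the 3 libraries overlapped in their counting intervals. Its log2 ratio to 0 days was 0.04 (interval -0.07 to 0.15) after 3 days and 0.02 (interval -0.09 to 0.13) after 5 days. With TMM scaling the 5-day value was -0.29, and with the length trend removed it was -0.01.

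Ratios between genes of the same library do not depend on a factor applied to a whole library, as in TMM scaling, but they do change when the length trend is removed. The log2 changes in this paragraph are of such ratios per length, with an exact interval from the read counts. Fcgr4 stood at 0.774, 0.698 and 0.290 of Fcgr2b after 0, 3 and 5 days. The ratio of Fcgr2b to Fcgr4 changed by 1.42 on the log2 scale at 5 days (interval 1.2 to 1.63). Fcgr1 stood at 0.0991, 0.159 and 0.556 of Fcgr4, a 5.61-fold change (log2 2.49, interval 2.16 to 2.82). Fcgr1 against Fcgr2b changed from 0.0767 to 0.111 and 0.161 (log2 1.07 at 5 days, interval 0.79 to 1.36). Fcgr3 against Fcgr2b was 2.31, 3.08 and 2.28, highest at 3 days, and from 0 to 5 days the ratio of Fcgr2b to Fcgr3 changed by 0.02 (interval -0.11 to 0.15). With the length trend removed the 5-day changes were 1.28 for Fcgr2b to Fcgr4, 2.03 for Fcgr1 to Fcgr4, 0.74 for Fcgr1 to Fcgr2b, which no longer passed 2-fold, and -0.06 for Fcgr2b to Fcgr3.

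Summed over the activating receptors, the level was 179, 227 and 157 RPKM after 0, 3 and 5 days. Fcgr3 made up 73.1%, 79.2% and 83.5% of the sum, Fcgr4 24.5%, 17.9% and 10.6%, and Fcgr1 2.43%, 2.85% and 5.91%. Fcgr3 thus took the largest part at all times, and the part of Fcgr4 was smallest at 5 days. The summed activating receptors stood at 3.16, 3.89 and 2.73 times Fcgr2b. Across the 28 pairs of the 8 genes, the within-library ratio changed at least 2-fold in 0 pairs at 3 days, 14 pairs at 5 days against 0 days and 6 pairs at 5 against 3 days. Over all pairs of the genes tested, 18.2%, 34.3% and 13.8% of pairs changed that much. With the length trend removed, a setting chosen for pairs after seeing the data, the counts were 0, 7 and 5 of the 28 pairs, beside 11.6%, 27.1% and 13.5% of all pairs.

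**Figure D2:**
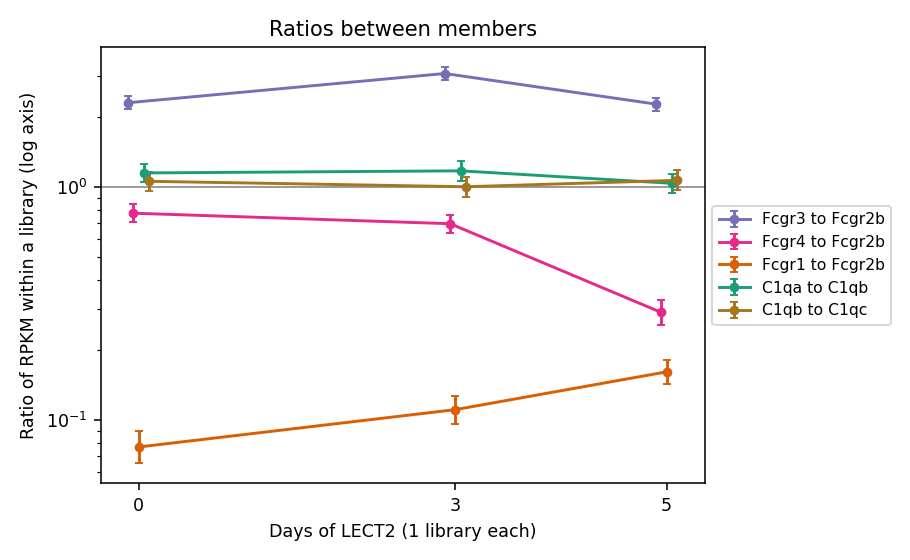
Ratios of RPKM between genes of the same library on a log axis against days of LECT2, with exact 95% counting intervals as bars. Fcgr4 to Fcgr2b goes from 0.774 to 0.290, Fcgr1 to Fcgr2b climbs from 0.0767 to 0.161, and C1qa to C1qb and C1qb to C1qc lie between 1.01 and 1.18.

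Fcer1g encodes the common gamma chain, the ITAM-bearing partner of the activating receptors and of other receptors. Its reads numbered 18092, 13526 and 9018 in the 0, 3 and 5-day libraries, or 1706, 1307 and 851 RPKM. Each later library was below the one before it, with no overlap of counting intervals. Against 0 days the log2 ratio of Fcer1g was -0.38 (interval -0.42 to -0.35) after 3 days. After 5 days it was -1.0 (interval -1.04 to -0.97), which left 49.9% of the 0-day level. Fcer1g has the shortest transcript of the 8 genes, 683 bases, and for the 205 genes within 10% of that length the median log2 ratios to 0 days were -0.52 (3 days) and -0.45 (5 days). With the length trend removed the 3-day ratio turned positive, 0.13, and the 5-day ratio was -0.53 and no longer passed 2-fold, whereas TMM scaling gave -1.31. The part of length in the fall was not tested further.

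Fcer1g was measured in excess over its receptors at all times. It stood at 9.51, 5.76 and 5.42 times the summed activating receptors after 0, 3 and 5 days, per length in each library. Against Fcgr4 alone it went from 38.8 to 32.1 and 50.9 times, and against Fcgr1 from 392 to 202 and 91.6 times. Once the length trend was removed, the log2 change of Fcgr1 to Fcer1g at 5 against 0 days was 1.27 in place of 2.08, that of Fcgr4 to Fcer1g -0.76 in place of -0.39, and that of Fcgr3 to Fcer1g 0.58 in place of 1.00.

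The C1q subunits moved little and together. C1qa, which encodes the A chain, had 1048, 944 and 913 reads (62.4, 57.6 and 54.4 RPKM). C1qb, for the B chain, had 892, 787 and 861 reads (54.1, 48.9 and 52.3 RPKM), and C1qc, for the C chain, had 841, 783 and 804 reads (51.0, 48.6 and 48.8 RPKM). In each gene the 0-day library was the highest, by a small margin. At 3 days the log2 ratios were -0.12 for C1qa (interval -0.24 to 0.01), -0.14 for C1qb (interval -0.29 to -0.01) and -0.07 for C1qc (interval -0.21 to 0.07). At 5 days they were -0.20 for C1qa (interval -0.33 to -0.07), -0.05 for C1qb (interval -0.19 to 0.09) and -0.06 for C1qc (interval -0.21 to 0.08), so the interval of C1qa alone excluded no change. The direction depends on the scaling: at 5 days TMM scaling gave -0.51, -0.36 and -0.37 for C1qa, C1qb and C1qc, and removing the length trend gave -0.02, 0.14 and 0.13. With the length trend removed the 3-day ratios were also above 0, at 0.23, 0.20 and 0.28. Genes within 10% of their lengths had medians between -0.18 and -0.15 at 5 days.

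The C1q chains kept close to equal parts. C1qa made up 37.3%, 37.1% and 35.0% of their summed RPKM at 0, 3 and 5 days, C1qb 32.3%, 31.5% and 33.6%, and C1qc 30.4%, 31.3% and 31.4%. C1qa to C1qb was 1.15, 1.18 and 1.04, and C1qb to C1qc was 1.06, 1.01 and 1.07. The intervals of all 9 changes of C1q ratios between time points included no change. The largest of these, C1qa to C1qb at 5 against 3 days, was -0.18 on the log2 scale with an interval from -0.37 to 0.02.

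**Figure D3:**
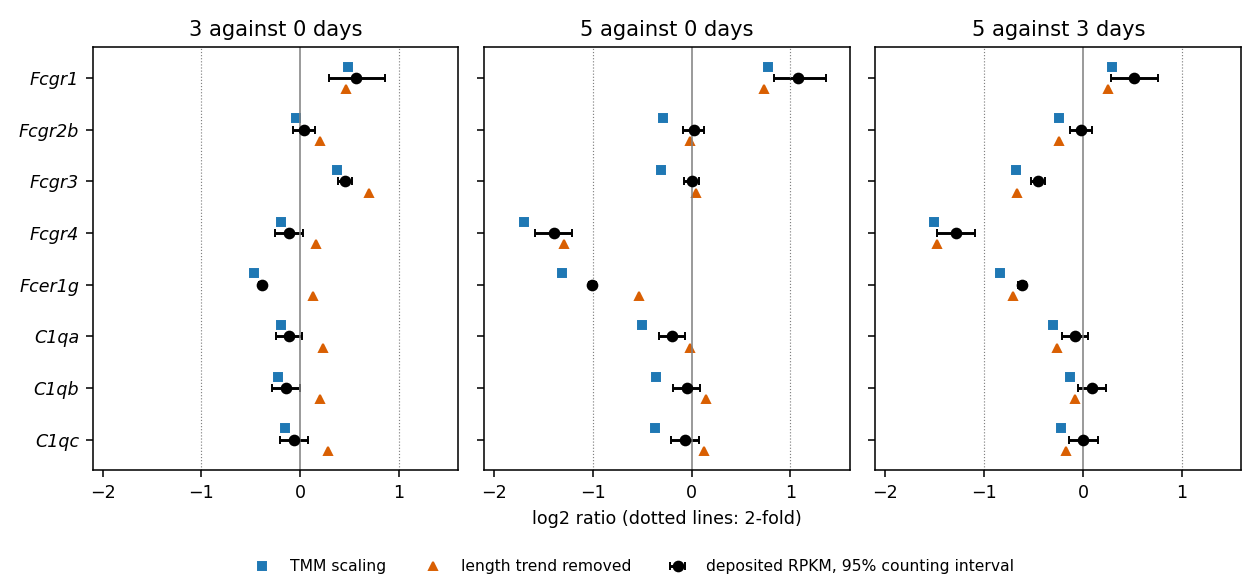
Log2 ratios of RPKM for the 8 genes in the comparisons of 3 against 0, 5 against 0 and 5 against 3 days, with exact 95% counting intervals as bars and values under other scalings beside them. Fcgr4 is lowest at 5 against 0 days with -1.39, Fcgr1 highest with 1.08, and the C1q subunits lie between -0.20 and -0.05.

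The other genes of Fc receptor signalling were taken as lists, each member with a mean of at least 1 RPKM. Of 32 genes of ITAM and ITIM signalling, 4 rose at least 2-fold at 5 against 0 days and 0 fell, with a median log2 ratio of 0.38 beside 0.31 over all genes. Over all genes 15.5% rose and 5.91% fell, and the counts of this list and of those that follow stand beside these shares. Cbl, a ubiquitin ligase that marks activated receptors for removal, went from 2.56 to 15.4 and 24.0 RPKM (log2 3.18 at 5 days, interval 3.02 to 3.45). Inppl1 (1.27), the SHIP relative, and the adaptor Sh3bp2 (1.12) and the exchange factor Vav2 (1.09) were the other genes that rose. With TMM scaling 1 rose and 2 fell (median 0.07), and with the length trend removed 1 rose and 0 fell (median -0.12), so the sign of the median depends on the scaling. Cbl was the gene that rose under both. The lowest of the list was its most abundant gene, Coro1a, for an actin-binding protein of leukocytes, with 1209, 880 and 641 RPKM (log2 -0.91 at 5 days, and -1.22 with TMM scaling). Lat, an adaptor, had a log2 ratio of -0.80, and -1.11 with TMM scaling, so Coro1a and Lat were the genes that passed 2-fold downward under TMM scaling. Tyrobp, the other ITAM adaptor of myeloid cells, stood at 889, 874 and 560 RPKM (log2 -0.67 at 5 days, interval -0.72 to -0.62, and -0.10 with the length trend removed).

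Of 8 receptors that pair with the common gamma chain, 1 rose and 2 fell at 5 against 0 days, and with the length trend removed 0 rose. Clec4e (Mincle) stood at 114, 95.6 and 18.0 RPKM (log2 -2.66 at 5 days, interval -2.78 to -2.55). Clec4d stood at 44.6, 41.7 and 3.57 RPKM (log2 -3.60 at 5 days, interval -4.00 to -3.30). Pira2, a paired Ig-like receptor, rose with 2.83, 8.04 and 7.26 RPKM. Clec4e and Clec4d, like Fcgr4, were near their 0-day level at 3 days and low in the 5-day library. Of 8 other Fc receptors, 1 passed 2-fold at 5 days: Ms4a2, the beta chain of the IgE receptor, rose from 3.13 to 7.12 and 11.0 RPKM, and the median log2 ratio of the 8 was -0.14.

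Most components of the classical pathway had little RNA in BM. Of those analysed, C1ra and C3 were the 2 that reached a mean of 1 RPKM, and 0 passed 2-fold at 5 against 0 days. C3, the central component, stood at 115, 200.0 and 222 RPKM (log2 0.95 at 5 days, interval 0.91 to 0.98), with 0.64 after TMM scaling and 0.27 with the length trend removed. C1ra, for a protease that binds C1q, stood at 1.05, 1.65 and 1.73 RPKM. Of 4 other components 1 passed 2-fold. Cfp, which encodes properdin, the stabiliser of the alternative-pathway convertase, stood at 181, 177 and 150.0 RPKM, and Fcnb, for the lectin ficolin B, at 156, 185 and 225 RPKM (log2 -0.27 and 0.53 at 5 days). The alternative-pathway protease Cfb rose (1.28, 1.15 and 2.96 RPKM), though not with TMM scaling (0.85) or the length trend removed (0.77). Among the 7 complement regulators with a mean of at least 1 RPKM, Cd46 rose (0.319, 1.14 and 1.65 RPKM) and 0 fell. Cd46 rested on few reads, 6, 21 and 31, and its log2 ratio at 5 days was 2.06 (interval 1.09 to 3.92).

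Of 12 complement receptors and C1q-binding genes, 2 rose and 1 fell at 5 against 0 days, with a median log2 ratio of 0.31 that became 0.01 with TMM scaling and -0.30 with the length trend removed. Lrp1, an endocytic receptor, stood at 2.88, 7.83 and 15.4 RPKM (log2 2.38 at 5 days, which removing the length trend lowered to 1.29, its transcript being 14907 bases long), and Cd93, once named a C1q receptor, at 26.8, 38.8 and 53.9 RPKM (log2 1.01). Cd93 did not pass with TMM scaling (0.70) or the length trend removed (0.22). C5ar1, the receptor for C5a, stood at 106, 94.8 and 20.4 RPKM (log2 -2.36), and with the length trend removed C5ar2 passed 2-fold downward too (-1.13, from -0.61). The complement receptor chains Itgam (165, 269 and 159.8 RPKM) and Itgb2 (271, 401 and 273 RPKM) were highest at 3 days, as was Fcgr3. At deposited RPKM neither passed 2-fold, whereas with the length trend removed Itgam did at 5 against 3 days (-1.04).

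**Figure D4:**
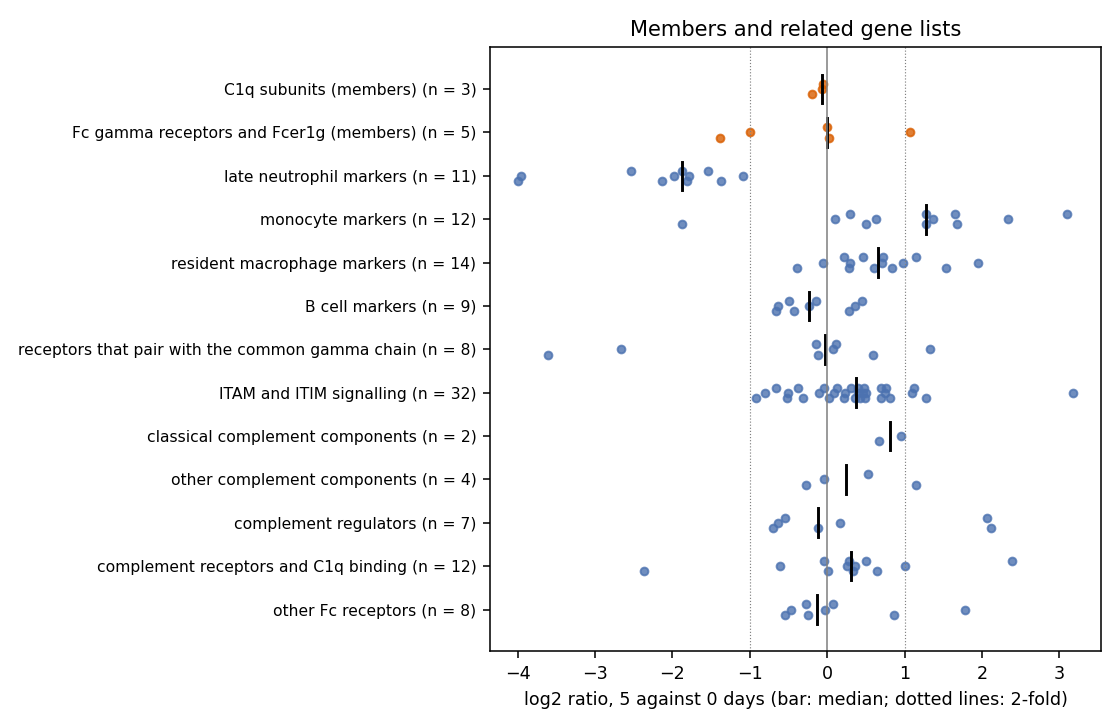
Log2 ratios of single genes at 5 against 0 days, grouped by list, with the median of each list marked. Late neutrophil genes lie at or below -1.08, monocyte genes are mostly above 0, and the 8 Fc gamma receptor and C1q genes spread from -1.39 to 1.08.

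Markers of the cell types that carry these receptors moved too, and in bulk marrow fewer cells of a type and less RNA per cell cannot be told apart. All 11 late neutrophil markers with a mean of at least 1 RPKM fell at least 2-fold at 5 against 0 days, with a median log2 ratio of -1.88 and a summed level of 150033, 115996 and 41373 RPKM. Removing the length trend left 10 of the 11 past 2-fold, without Ngp (-0.95). Of them 9 fell further than Fcgr4 and 11 further than Fcer1g. Of 12 monocyte markers 7 rose and 1 fell, with a summed level of 1856, 2315 and 2942 RPKM. Their median was 1.27 (0.97 with TMM scaling, where 5 rose, and 0.89 with the length trend removed, where 6 rose). The marker that fell was Nr4a1, with 317, 280 and 86.4 RPKM (log2 -1.87 at 5 days), and Fn1 rose most (3.10). At deposited RPKM Fcgr1 was above 5 and below 7 of the monocyte markers at 5 days, while Fcgr3 and Fcgr2b were below 11. With the length trend removed Fcgr1 (0.73), Fcgr3 (0.05) and Fcgr2b (-0.01) each ranked above more of these markers. Of 14 resident macrophage markers 3 rose (Siglec1 1.95, Mertk 1.54 and Cd163 1.14) and 0 fell, with a median of 0.66 (0.35 with TMM scaling) and a summed level of 197, 254 and 265 RPKM. Cd163 did not pass with TMM scaling (0.84) or the length trend removed (0.52). At deposited RPKM C1qa and C1qc had a lower log2 ratio than 13 of these markers and C1qb than 12. With the length trend removed the gap was smaller: the median of these markers was 0.22, beside -0.02 for C1qa, 0.14 for C1qb and 0.13 for C1qc. Of 9 B cell markers 0 passed 2-fold, with a median of -0.23 beside 0.02 for Fcgr2b. The part of each cell type in the values of the 8 genes was not tested.

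Genes most like each member were sought above a mean level of 5 RPKM, by the distance between their log2 ratios at 3 and at 5 days against 0 days, over the 3 libraries. All distances here use the deposited RPKM. Nearest to Fcgr4 were Cd9 (distance 0.0222), Ltf (0.0223) and Sparc (0.0324), and Ltf, lactoferrin, is also among the late neutrophil markers. With the length trend removed, the log2 ratios of Fcgr4 to 0 days were 0.16 at 3 days and -1.30 at 5 days. Those of Ltf were -0.25 and -1.75, so Ltf then lay farther from Fcgr4. Nearest to Fcer1g were Samsn1 (0.00740), Ifi27l1 (0.0158) and Gnal (0.0206). Nearest to Fcgr3 were Rhbdf2, Rgs18 and Mctp2, to Fcgr1 Etv6, Tpr and Bahd1, and to Fcgr2b Capns1, Klhl12 and 4930420K17Rik. Nearest to the mean of the C1q subunits were Map2k3, Ppp1r12c, Atp6ap1, Stambpl1 and Zfp830. The members differed in how crowded their surroundings were: within a distance of 0.15 lay 15 genes for Fcgr4, 30 for Fcer1g and 62 for Fcgr3, beside 259 for Fcgr1, 344 for C1q and 360 for Fcgr2b, of 8191 genes compared (8189 for C1q).

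**Figure D5:**
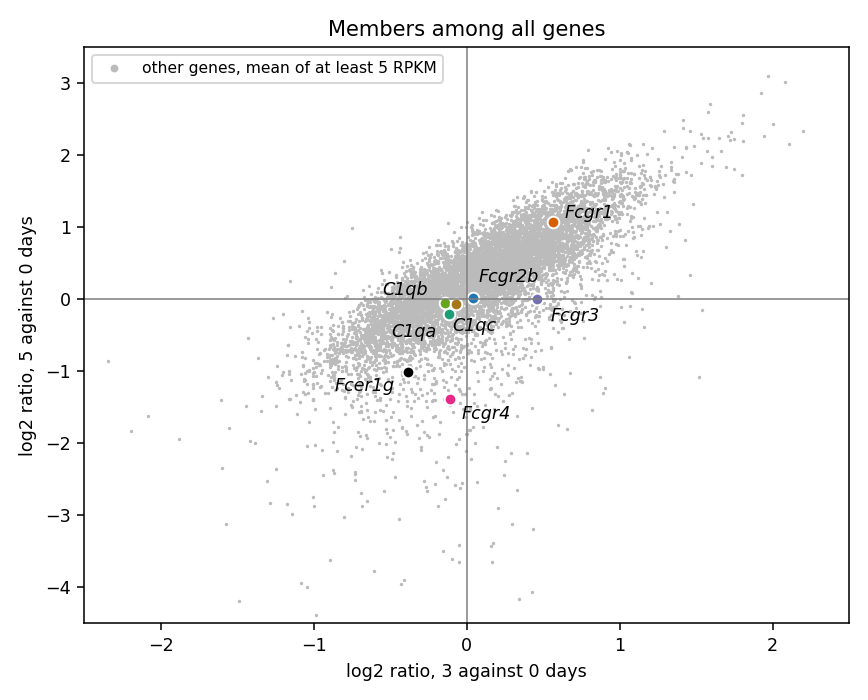
Log2 ratio at 5 days against 0 days plotted over the log2 ratio at 3 days against 0 days, with the 8 genes coloured and 8184 other genes above a mean level of 5 RPKM in grey, of which 8 lie outside the axes. Both axes share the 0-day library. Fcgr4 and Fcer1g lie below the main cloud, Fcgr3 at its lower right edge and Fcgr1 within it.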

How the data were processed

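RNA of flushed BM cells was sequenced in 3 libraries. The tables deposited by the authors hold read counts per transcript and RPKM normalised by the authors to the reads on genes. The submitters' processing notes name mm8 and the methods name Cufflinks, while the aligner is not given in the sources used here. The deposited tables also hold the authors' log2 ratios, p-values and false discovery rates of the comparisons, which were not used.

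Each of the 8 genes had 1 row, and where a symbol repeated, its most abundant row was taken (17559 rows, 17250 names). Log2 ratios used a pseudocount of 0.1 RPKM. Intervals are exact (Clopper-Pearson, 95%) from read counts, and since PCR reads carry no molecular identifiers they cover counting error only. Scaling factors came from edgeR 4.0.16 (TMM) and DESeq2 1.42.0 (median of ratios), with R 4.3.3. Other steps used scipy 1.17.1, statsmodels 0.14.6, numpy 2.4.6, pandas 2.3.3 and matplotlib 3.10.9 (Python 3.11.15). The length trend was a local regression of log2 ratio on transcript length (span 0.3). Counts and intervals were tested on simulated data. Positions and promoters are GRCm38, from GENCODE and RefSeq.

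Of other lists, only the 3 most abundant, the largest rise and fall, and those past 2-fold were named. The 8 genes, the lists and the alternatives were chosen with earlier results of these data known. A result among the complement regulators is not reported here.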

Additional observations from a re-analysis of the deposited data

How the results depend on the processing

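The count of the 8 genes past 2-fold at 5 against 0 days was 3. It was 0 when at least 4-fold was asked and 1 (Fcgr4) with the length trend removed. At 5 against 3 days it was 1, became 2 at 1.5-fold (Fcgr4 and Fcer1g) and 0 at 4-fold. The 5 against 0 day count was 2, without Fcgr1, with a pseudocount of 1, with TMM or median-of-ratios scaling, or once the 100 most abundant genes were left out. The count of the 28 pairs of these genes whose ratio changed at least 2-fold at 5 against 0 days was 14, and 7 with the length trend removed (added after the data were seen). Of the 24 log2 ratios of the 8 genes, all 24 stayed within their counting interval with pseudocounts of 1 or 0.01 or with rows of a symbol summed, 7 did with TMM or median-of-ratios scaling (17 were lower, 5 changed sign), and 13 did without the 100 most abundant genes (11 lower, 5 changed sign). With the length trend removed 4 did, 11 were higher, 9 lower and 10 changed sign. No ratio past 2-fold changed sign in these settings. Over all genes at 5 against 0 days, 1786 were at least 2-fold higher and 680 lower, which became 832 and 1141 with TMM scaling, 862 and 1118 with median-of-ratios scaling, and 581 and 875 with the length trend removed. The higher count was 1140 with a pseudocount of 1 and 1099 without the most abundant genes, and the lower count was 421 with a minimum of 5 RPKM and 1180 with none. At 5 against 3 days the higher count of 222 became 74 with TMM scaling, 77 with median-of-ratios scaling, 122 once the most abundant genes were left out, 75 with the length trend removed and 52 with a pseudocount of 1. At 3 against 0 days 462 higher became 293 with the length trend removed, and 462 and 273 became 190 and 120 with a pseudocount of 1. With a minimum of 5 RPKM the higher and lower counts were 236 and 118 at 3 against 0 days and 94 and 258 at 5 against 3 days, and with no minimum 830 and 688, and 578 and 717. At 1.5-fold they were 3961 and 1413 at 5 against 0 days, and at 4-fold 153 and 186. No paired analysis was possible because there was 1 library per time point. For the same reason no library could be left out. The counting intervals cannot show how much mice or libraries vary.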

Other observations

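Markers of cell types that can also carry Fcer1g or Fc receptors gave these values at 5 against 0 days, again with no replicate. Of 9 NK cell markers 0 passed 2-fold (median log2 ratio -0.04). After 3 days Klrd1 and Gzma were at least 2-fold lower, beside 2.41% of all genes, and the median was -0.63. Neither passed at 3 days after removal of the length trend (Klrd1 -0.62, Gzma -0.74), while Eomes did (-1.01, from -0.75). Of 9 basophil and mast cell markers Ms4a2 rose and Hdc and Il4 fell, with a median of -0.20. Of 6 megakaryocyte and platelet markers 0 passed 2-fold at 5 days, and 2 fell at 3 days (1 with the length trend removed). Of 8 erythroid markers 2 fell at 5 days, the globins Hba-a1 and Hbb-b1. Of 4 osteoclast markers Ctsk and Mmp9 fell, and Mmp9 is also among the late neutrophil markers. With TMM scaling 1 megakaryocyte marker and 3 erythroid markers fell at 5 days.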
